A study of Helianthus annuus with 2 samples.

Results

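Pairs of H3K4me3 peaks whose highest point lay at another place in the early and in the late developing sunflower seed are described here. A pair joins 1 interval of the list labelled 13 DAA (days after anthesis) with 1 interval of the list labelled 28 DAA. The members were chosen by their positions: both intervals lie on 1 of the 17 chromosomes, they share at least 1 bp, neither overlaps any further interval of the opposite list, both are at most 1000 bp wide, and their summits are 300 bp or more apart. The summit is the position of the interval at which the most sequenced fragments pile up. In all, 1267 pairs met these limits, out of 35419 one-to-one pairs with both widths at most 1000 bp (3.58%, 95% Wilson interval 3.39 to 3.78%) and out of 288543 intervals in both lists together.

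H3K4me3 is a histone mark of active genes. It is laid down by SET-domain methyltransferases, sits mostly on the first nucleosomes after the start of a transcribed gene and is read by proteins with a PHD finger. In seeds of Arabidopsis, the mark is found on genes for master regulators of maturation such as ABI3 and FUS3. The position of a summit within a marked stretch shows where most immunoprecipitated fragments lay, so that a summit that moves by 300 bp moves past more than 1 nucleosome.

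The seeds came from CAS-9, a fixed high-oleic mutant line of sunflower (Helianthus annuus), grown in chambers under long days and harvested at 13 DAA, the early stage of fatty acid synthesis, and at 28 DAA, the late stage. Each stage was 1 ChIP-Seq library of whole developing seeds with an antibody against H3K4me3, so the embryo and the tissues around it were not separated, and fewer marked cells cannot be told apart from less mark per cell. With 1 library per stage, no spread between replicates exists and no difference between the stages was tested. Intervals given with a share or a fragment number cover counting error only. The list labelled 13 DAA held 165079 peaks with a median of 19 fragments at the summit, and the list labelled 28 DAA held 123464 with a median of 43. The text of the study assigns the longer list to the later stage, whereas the labels of the files assign it to the earlier one. The normalized strand cross-correlation that the study gives is higher at the later stage, whereas the relative strand cross-correlation is higher at the earlier one. The number of fragments at the summit is higher at the later stage when the labels are followed. All stages named below follow the labels.

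Of 162824 and 122415 intervals on the chromosomes, 37400 one-to-one pairs could be formed, and 35419 of them kept within the width limit. The distance between the summits had a median of 385 bp (quartiles 337 and 464 bp) and reached 862 bp. It was under 400 bp in 694 pairs, from 400 to under 500 bp in 342 and from 500 to 599 bp in 150, while 56 pairs lay at 600 to 699 bp, 22 at 700 to 799 bp and 3 beyond. The limit of 300 bp cuts a continuous slope, with 98 pairs in the last 10 bp below it and 85 in the first 10 bp above.

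**Figure D1:**
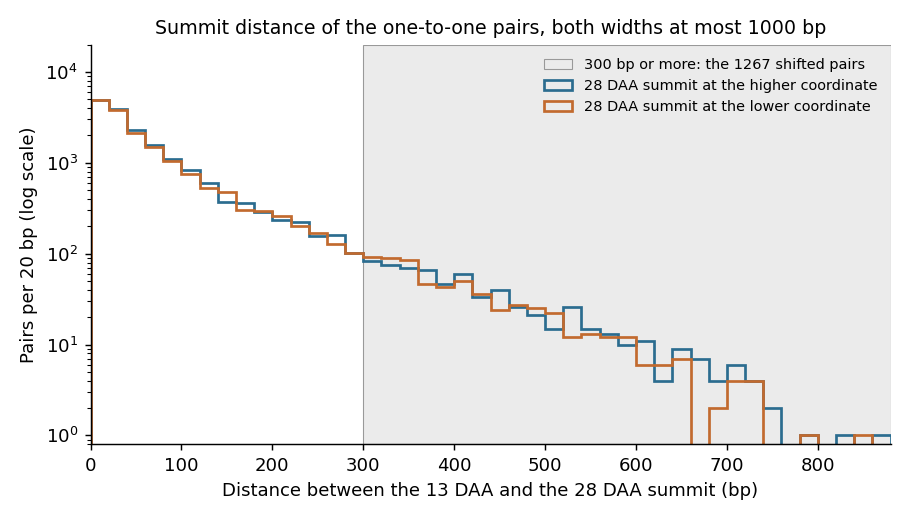
Number of one-to-one pairs per 20 bp of distance between the 13 DAA and the 28 DAA summit, on a log scale, drawn apart for pairs with the 28 DAA summit at the higher and at the lower coordinate. The counts fall steadily across the limit of 300 bp, and both directions run together, with 649 of the 1267 shifted pairs at the higher coordinate.

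Just inside the limit stood a pair on chromosome 2, with summits at 137980099 and 137980399, and 2 pairs on chromosome 4, with summits at 135341860 and 135341560 and at 157263358 and 157263658. All 3 were exactly 300 bp apart. Just outside, at 299 bp, stood pairs on chromosome 1 (144758978 and 144759277), chromosome 2 (49736768 and 49737067) and chromosome 5 (127329897 and 127329598). In each case the 13 DAA summit is given first. Positions are those of the XRQ genome in the deposited lists, counted from 1. No gene is named for a pair, since neither gene models nor the sequence of the XRQ version in these lists entered the work.

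As in the one-to-one pairs in general, most 13 DAA intervals lay inside a longer 28 DAA interval. The median width was 283 bp at 13 DAA (quartiles 179 and 491 bp) and 715 bp at 28 DAA (quartiles 547 and 857 bp), and 1041 of the 1267 pairs (82.2%, 80.0 to 84.2%) were wider at 28 DAA. Among all 35419 pairs this share was 79.8%, so it was not much larger in the shifted pairs. The shortest interval was 134 bp in the list labelled 13 DAA and 161 bp in the list labelled 28 DAA, so the widths have unlike lower limits. A width at least 1.5 times larger at 28 DAA was found in 838 of the shifted pairs (66.1%) against 52.3% of all pairs, and one at least 1.5 times larger at 13 DAA in 157 (12.4%) against 7.40%. Among pairs with a joint length of 600 bp or more, counted from the first to the last base that either interval covers, the first share was lower in the shifted pairs (72.1%, 69.2 to 74.8%) than in those with summits within 50 bp (80.3%, 79.0 to 81.5%). The 13 DAA interval was contained in the 28 DAA interval in 777 pairs (61.3%), the reverse held in 54 (4.26%), and in 436 (34.4%) the intervals overlapped in part. In all 35419 pairs these shares were 64.7%, 8.43% and 26.9%. The overlap had a median of 209 bp. Since widths and overlaps entered the choice of the pairs, these values describe them and are not a result on the stages.

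Only in 213 pairs (16.8%, 14.9 to 19.0%) did each summit lie inside the interval of the other stage. In 774 pairs (61.1%, 58.4 to 63.7%), the 13 DAA summit lay inside the 28 DAA interval but the 28 DAA summit lay outside the 13 DAA interval. The reverse was seen in 115 pairs (9.08%). In 165 pairs (13.0%, 11.3 to 15.0%), neither summit was covered by the other interval, so these pairs met by their flanks.

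With each pair turned so that the 28 DAA summit lies to the right, the 13 DAA summit stood at a median of -234 bp from the centre of the 28 DAA interval (quartiles -307 and -174 bp). The 28 DAA summit stood at 178 bp (quartiles 110 and 245 bp). That the summits lay off the centre and on opposite sides follows largely from the choice of summits 300 bp or more apart in intervals of at most 1000 bp, and from turning the pairs. On the side of its own summit, the 28 DAA interval reached a median of 377 bp past the end of the 13 DAA interval, and on the other side 29 bp. Within its own interval, the 28 DAA summit was 143 bp from the nearer end (median), or 22.2% of the width, whereas in pairs with summits within 50 bp and a joint length of 600 bp or more it was 228 bp, or 32.2%.

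**Figure D2:**
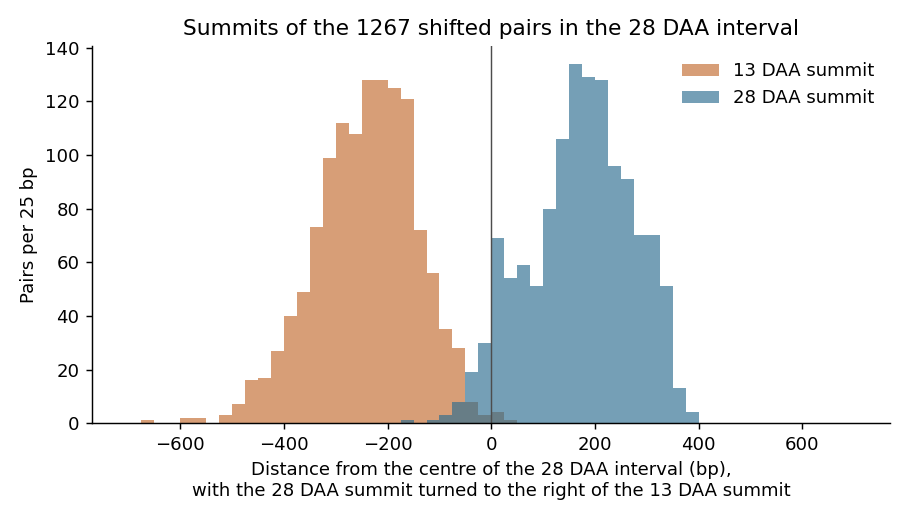
Position of the 13 DAA and the 28 DAA summits of the 1267 shifted pairs relative to the centre of the 28 DAA interval, in bp, counted per 25 bp, with every pair turned so that the 28 DAA summit lies to the right. The early summits gather around -234 bp and the late summits around 178 bp, an arrangement that the choice and turning of the pairs largely set.

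The 5 pairs with the largest distance show how such a pair looks. On chromosome 14, the 13 DAA interval ran from 18320964 to 18321372 with its summit at 18321082, and the 28 DAA interval from 18321063 to 18322059 with its summit at 18321944, 862 bp away. The fold enrichment, that is the fragments at the summit over those expected from the local background, was 5.13 at 13 DAA (95% Poisson interval 3.36 to 7.53) and 7.81 at 28 DAA (6.02 to 9.97), with 24 and 62 fragments at the summit. The interval was thus short early and long late, with its late summit close to the far end, and the Poisson intervals of the fold enrichments overlapped. No input control is stated in the sources used here. The local background may therefore hold fragments of the peak itself and of marked neighbours, and it is not a separate measure of noise.

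On chromosome 10, a 13 DAA interval of only 134 bp, from 194883007 to 194883140, overlapped the end of a 28 DAA interval from 194882069 to 194883062 by 56 bp. Its summit at 194883055 had 14 fragments and a fold enrichment of 4.84 (2.79 to 7.90), while the late summit at 194882215, 840 bp away, had 41 fragments and a fold enrichment of 11.0 (8.00 to 14.9). This was the only one of the 5 in which the Poisson intervals of the stages did not overlap with the higher value at 28 DAA. On chromosome 5, the 13 DAA interval from 2798119 to 2798337 and the 28 DAA interval from 2798193 to 2799136 had summits 786 bp apart. There the fold enrichment was 5.58 early (3.74 to 8.02) with 27 fragments and 3.24 late (2.53 to 4.08) with 70 fragments, on a local background of 4.02 fragments at 13 DAA and 20.9 at 28 DAA. The early value was the larger one, but the Poisson intervals overlapped.

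The remaining pairs of the 5 were wider at 13 DAA and met by their flanks. On chromosome 14, the intervals from 1230648 to 1231409 at 13 DAA and from 1231351 to 1231700 at 28 DAA shared 59 bp. Their summits were 822 bp apart, with fold enrichments of 5.23 and 5.22 and 31 and 18 fragments. On chromosome 4, the intervals from 10656249 to 10656966 and from 10655952 to 10656286 shared 38 bp, with summits 799 bp apart, fold enrichments of 6.16 and 6.06, and 22 and 19 fragments. In both of these pairs neither summit was covered by the other interval, and the fold enrichments of the stages were nearly the same at places several nucleosomes apart.

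The pairs with the strongest enrichment at both stages had summits 338 to 500 bp apart, around the median of all shifted pairs. Ranked by the smaller of both fold enrichments, the first lay on chromosome 16, from 71141522 to 71142132 at 13 DAA and from 71141424 to 71142254 at 28 DAA. Its fold enrichment was 14.5 (10.6 to 19.4) with 44 fragments early and 13.1 (11.2 to 15.3) with 161 fragments late, and its summits were 391 bp apart. Here almost the same stretch was marked at both stages and each interval contained both summits, at opposite ends.

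The same arrangement was seen on chromosomes 2 and 12. On chromosome 2, the intervals from 52508377 to 52509016 and from 52508268 to 52509164 had fold enrichments of 11.9 and 11.0 with 36 and 148 fragments, at summits 395 bp apart. On chromosome 12, those from 19109563 to 19110226 and from 19109508 to 19110361 had 10.7 and 13.0 with 39 and 158 fragments, at summits 389 bp apart. In both, as on chromosome 16, the late summit held far more fragments. The local background, which may hold marked fragments, was also higher late, at 12.6 fragments on chromosome 2 and 11.2 on chromosome 12. The early values were 2.1 and 2.73.

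On chromosome 14, the intervals from 50586921 to 50587425 and from 50586872 to 50587745 had fold enrichments of 11.3 and 10.8 at summits 500 bp apart. On chromosome 3, those from 135952290 to 135952659 and from 135952018 to 135952576 had 11.6 and 11.8 at summits 338 bp apart, with 35 and 38 fragments. In all 5 pairs of this ranking the Poisson intervals of the fold enrichments overlapped between the stages. The ranking itself asks for a high value at both stages. No error was available for the place of a summit, so place and height cannot be weighed against each other.

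Over all 1267 pairs, the median fold enrichment was 5.53 at 13 DAA (quartiles 4.70 and 6.53) and 6.41 at 28 DAA (quartiles 4.87 and 8.24). It was higher at 28 DAA in 799 pairs (63.1%, 60.4 to 65.7%), compared with 59.4% of all 35419 pairs. A fold enrichment at least 1.5 times higher at 28 DAA was found in 275 pairs (21.7%, 19.5 to 24.1%), near the 23.5% of all pairs. One at least 1.5 times higher at 13 DAA was found in 78 (6.16%, 4.96 to 7.62%) against 9.88%. The Poisson intervals did not overlap, with the higher value at 28 DAA, in 79 pairs (6.24%, 5.03 to 7.70%) against 11.2% of all pairs, and with the higher value at 13 DAA in 12 (0.947%, 0.543 to 1.65%) against 2.11%. By either rule, the share of shifted pairs that differed in height between the lists was near or below that of all pairs, and the shares were not tested against each other.

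**Figure D3:**
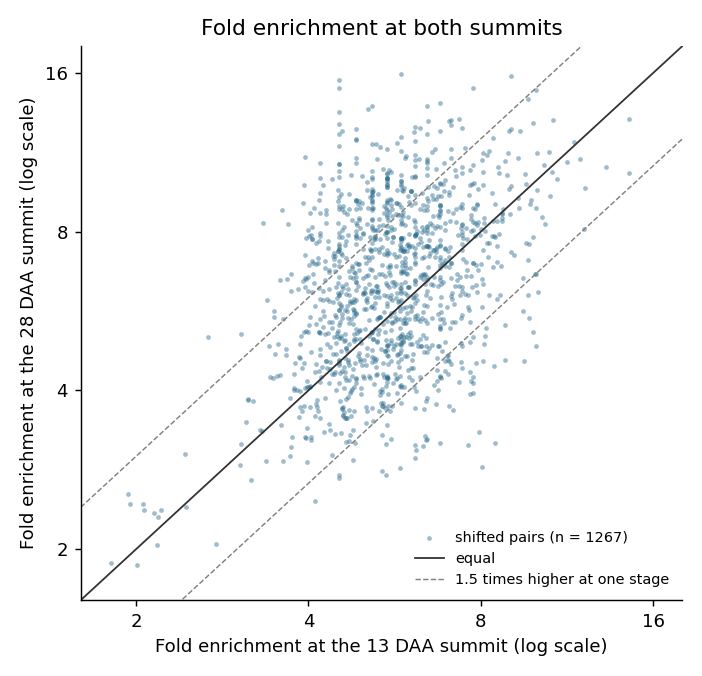
Fold enrichment at the 28 DAA summit against that at the 13 DAA summit for the 1267 shifted pairs, both on log scales, with lines of equal values and of 1.5 times higher values at one stage. Most points lie between the broken lines, since 275 pairs were 1.5 times higher at 28 DAA and 78 at 13 DAA.

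The number of fragments separated the lists more. The median was 22 fragments at the 13 DAA summit (quartiles 18 and 28) and 75 at the 28 DAA summit (quartiles 38 and 104). To set aside the depth of the libraries, each number was divided by the genome-wide background of its list, 2.1 fragments at 13 DAA and 2.30 at 28 DAA. The division does not correct for the efficiency of the immunoprecipitation, and the strand cross-correlations given above differ between the stages, in opposite directions. The summits then stood at a median of 10.48 times the background early and 32.6 times late, and were higher late in 1051 pairs (83.0%, 80.8 to 84.9%). The share among all pairs was 78.2%. A value at least 1.5 times higher at 28 DAA was found in 960 pairs (75.8%) against 64.9% of all pairs, and one at least 1.5 times higher at 13 DAA in 113 (8.92%) against 7.71%. All pairs include many short ones, and at a joint length of 600 bp or more the order was the opposite, with 84.2% of the shifted pairs at least 1.5 times higher at 28 DAA against 94.4% of those with summits within 50 bp. The fold enrichment was higher at 28 DAA in 68.6% and 80.0% of these pairs. The local background, which may hold marked fragments, moved the same way, with a median of 2.92 fragments at 13 DAA and 10.1 at 28 DAA.

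A short pair cannot hold summits 300 bp apart, so pairs were also compared at like length. The share of shifted pairs rose from 5.12% (4.50 to 5.83%) at a joint length of 500 to 599 bp, over 8.58% at 600 to 699 bp, 11.8% at 700 to 799 bp and 16.5% at 800 to 899 bp, to 20.9% (18.6 to 23.4%) at 900 bp or more. Among the 8089 pairs of 300 to under 400 bp there was 1 shifted pair. Most of the longest pairs thus kept their summits closer together than 300 bp.

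Among pairs with a joint length of 600 bp or more, the 1007 shifted ones had lower summits at both stages than the 3981 with summits within 50 bp. The median fold enrichment was 5.59 against 6.64 at 13 DAA and 6.97 against 9.46 at 28 DAA. The median number of fragments was 22 against 27 at 13 DAA and 83 (quartiles 53 and 112) against 130 (quartiles 97 and 156) at 28 DAA. By distance, the late median fell from 130 fragments at 0 to 50 bp over 115 at 51 to 99 bp, 100 at 100 to under 200 bp and 87 at 200 to under 300 bp to 83 at 300 to under 400 bp, and it was also 83 in both classes beyond. The median fold enrichments went on falling past 300 bp. The late one was 7.32 at 300 to under 400 bp, 6.89 in the next class and 6.51 at 500 to 862 bp, and the early one 5.80, 5.61 and 5.4. The early median number of fragments was 23, 21 and 21 in these classes.

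**Figure D4:**
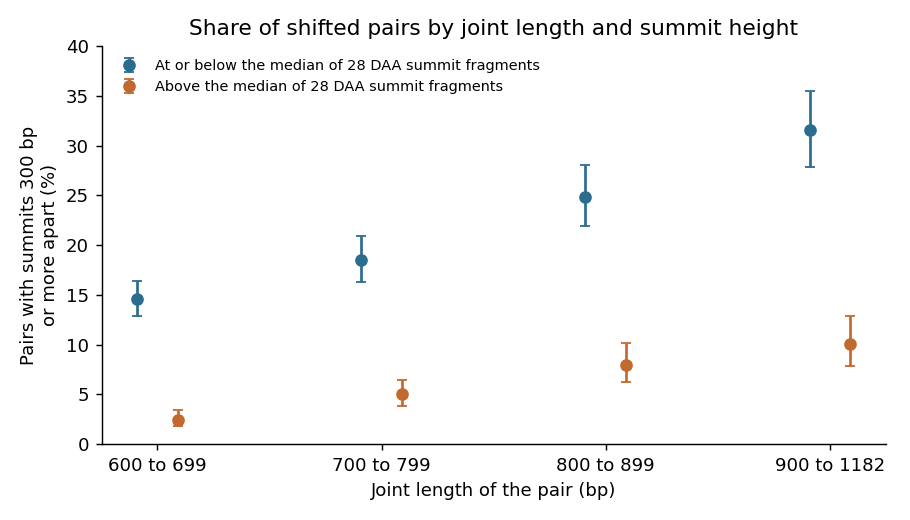
Share of one-to-one pairs with summits 300 bp or more apart by joint length, drawn apart for pairs at or below and above the median of 28 DAA summit fragments of their length class, with 95% Wilson intervals. In every class the lower late summits had the larger share, from 14.6% against 2.48% at 600 to 699 bp to 31.6% against 10.1% at 900 to 1182 bp.

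The height of the late summit and the length of the pair were then considered together. Within each length class, the pairs with late summits at or below the class median were shifted more often, in 14.6% (12.9 to 16.4%) against 2.48% (1.81 to 3.39%) at 600 to 699 bp, in 18.5% against 5.04% at 700 to 799 bp, in 24.9% against 7.96% at 800 to 899 bp and in 31.6% (27.9 to 35.5%) against 10.1% (7.85 to 12.9%) beyond. With the pairs of 700 bp or more split into 5 classes of similar size by the late fragment number, the share was 25.8% at 14 to 75 fragments, 25.2% at 76 to 107, 14.8% at 108 to 134, 7.05% at 135 to 159 and 3.98% (2.91 to 5.41%) at 160 to 239. In classes of the early number it was 21.6% at 11 to 18 fragments and 7.89% at 38 to 155. Low summits rest on few fragments, and the part of this in the distance of the summits was not tested.

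The pairs that rest on the most fragments at both stages were also examined, with 1 pair per chromosome taken by the smaller of both numbers. These 17 pairs had 42 to 118 fragments at 13 DAA and 47 to 178 at 28 DAA, with summits 318 to 575 bp apart. They fell into 2 kinds by their local background. In 7 of them (chromosomes 1, 5, 9, 10, 12, 14 and 15), the background was 13.5 to 64.9 fragments at 13 DAA and 18.0 to 86.6 at 28 DAA, and the fold enrichments were only 1.81 to 3.18 and 1.88 to 3.03. At these places many fragments lay in the surroundings at both stages, and the summits rose little above them.

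The one with the most early fragments lay on chromosome 12, from 158421041 to 158421520 at 13 DAA and from 158421033 to 158421276 at 28 DAA, with 118 and 88 fragments, fold enrichments of 1.81 and 1.88, and summits 329 bp apart. On chromosome 15, the intervals from 141746688 to 141747352 and from 141746682 to 141747061 had 106 and 80 fragments and summits 318 bp apart. On chromosome 9, those from 143820624 to 143821131 and from 143820618 to 143821399 had 75 and 178 fragments and fold enrichments of 2.76 and 2.04, with summits 352 bp apart. The other 4 were similar, with 43 and 54 fragments on chromosome 1, 67 and 60 on chromosome 5, 57 and 69 on chromosome 10, and 95 and 69 on chromosome 14.

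In the other 10 pairs, the background was 4.05 to 6.04 fragments at 13 DAA and 3.96 to 31.3 at 28 DAA. Their fold enrichments ran from 7.13 to 12.2 early and from 3.34 to 9.68 late, and were higher late in 2 of the 10. On chromosome 11, the intervals from 57899133 to 57900026 and from 57899170 to 57899941 had 70 and 47 fragments and fold enrichments of 12.2 (9.52 to 15.3) and 9.68 (7.16 to 12.8), at summits 341 bp apart. This pair had more fragments early than late, which was found in no other of the 10.

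On chromosome 7, the intervals from 73934892 to 73935156 and from 73934854 to 73935748 had 54 and 129 fragments and fold enrichments of 10.2 and 8.53, at summits 355 bp apart. On chromosome 3, those from 92356501 to 92356867 and from 92356540 to 92357471 had 48 and 75 fragments at summits 575 bp apart, and the fold enrichment was 9.71 (7.21 to 12.8) early and 5.48 (4.33 to 6.85) late, without overlap of the Poisson intervals. The same was seen on chromosome 13, from 111643121 to 111643730 and from 111643241 to 111643848, where it was 7.95 (6.02 to 10.3) early and 3.34 (2.61 to 4.21) late, at summits 352 bp apart. In both pairs the late summit still held more fragments than the early one, on late backgrounds that were several times the early ones.

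On chromosome 4, the intervals from 173542923 to 173543592 and from 173542879 to 173543643 had 49 and 173 fragments, at summits 462 bp apart. On chromosome 16, those from 29321249 to 29322149 and from 29321230 to 29322214 shared 901 bp, the longest overlap among all 1267 pairs, and had 47 and 133 fragments with summits 544 bp apart. Nearly the same stretch was thus marked on both chromosomes at both stages, with a late summit toward the other end. The remaining pairs of this kind had 42 and 159 fragments on chromosome 2, 52 and 106 on chromosome 6, 47 and 52 on chromosome 8, and 42 and 159 on chromosome 17.

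The surroundings of the pairs within the same list were not used in choosing them, except that a further 13 DAA interval could not reach into the 28 DAA interval, nor a further 28 DAA interval into the 13 DAA interval. Another 28 DAA interval lay within 1000 bp of the 28 DAA interval in 700 of the 1267 pairs (55.2%, 52.5 to 58.0%). It was on 1 side only in 650 pairs and on both sides in 50. Another 13 DAA interval lay within 1000 bp in 269 pairs (21.2%, 19.1 to 23.6%), a share that was 11.5% among intervals with q-values of at most 1e-10 and 56.0% when any number of partners was allowed. At a joint length of 600 bp or more, shifted pairs did not stand out in this, with 57.1% and 20.4% against 57.0% and 22.2% for pairs with summits within 50 bp.

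The side of the late summit was then read across classes of summit distance, the value by which the pairs were chosen. Of the 650 pairs with a neighbouring 28 DAA interval on 1 side, the 28 DAA summit lay toward that neighbour, as seen from the 13 DAA summit, in 518 (79.7%, 76.4 to 82.6%). In pairs of 600 bp or more with summits 1 to 50 bp apart it was 1026 of 1919 (53.5%, 51.2 to 55.7%), and with summits 100 to under 300 bp apart 502 of 767 (65.4%, 62.0 to 68.7%). In those 777 shifted pairs whose 13 DAA interval lay wholly inside the 28 DAA interval, where the choice of pairs puts no limit on the 28 DAA neighbours, the share was 342 of 441 (77.6%, 73.4 to 81.2%). It was also alike for late summits at or below the median of the shifted pairs (218 of 272, 80.1%) and above it (300 of 378, 79.4%). At distances of 1 to 50 bp, a small error in placing a summit can change the side, so a nearly even share says little there. The rise with distance therefore cannot show a trait particular to the shifted pairs.

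For the neighbours of the early list, the share over all pairs was close to even. Among 251 pairs with a further 13 DAA interval within 1000 bp on 1 side only, the 28 DAA summit lay toward it in 133 (53.0%, 46.8 to 59.1%). This was 73 of 116 (62.9%, 53.9 to 71.2%) for late summits at or below the median of the shifted pairs and 60 of 135 (44.4%, 36.3 to 52.9%) above it. Within 500 bp it was 50 of 138 (36.2%). The shares at both distances are bounded by the choice of pairs. A 13 DAA neighbour close by on the late side would often overlap the 28 DAA interval and end the one-to-one relation. These shares therefore cannot show whether early neighbours lie to a side.

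**Figure D5:**
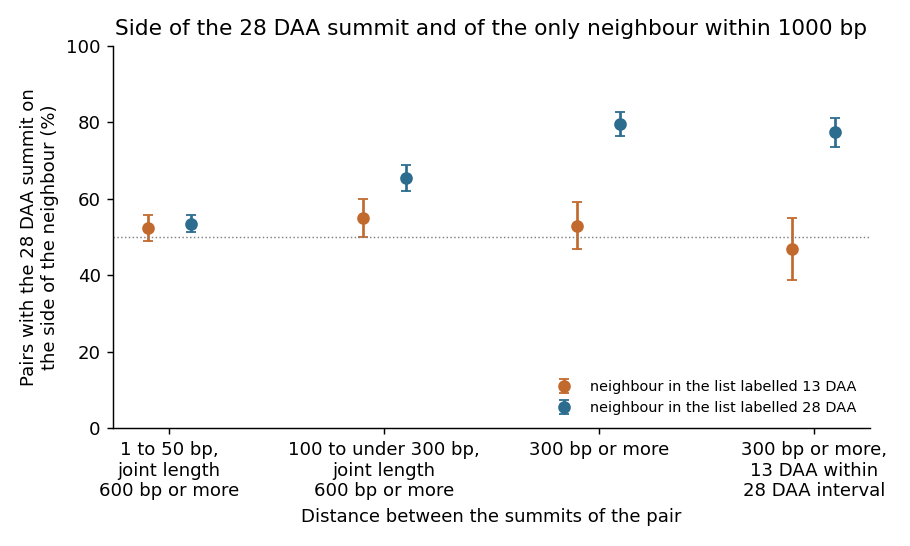
Share of pairs in which the 28 DAA summit lay on the side of the only neighbouring interval within 1000 bp, for neighbours in either list, by distance between the summits, with 95% Wilson intervals and a dotted line at 50%. For 28 DAA neighbours the share rose from 53.5% over 65.4% to 79.7%, and it was 77.6% where the 13 DAA interval lay inside the 28 DAA interval. For 13 DAA neighbours of the shifted pairs it was 53.0%, a share that the choice of pairs bounds.

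Late intervals in general, with those of the shifted pairs among them, leaned the same way. Among all 28 DAA intervals of 500 to 1000 bp with a 28 DAA neighbour on 1 side, the summit lay on the side of the interval's centre next to the neighbour in 6836 of 10874 (62.9%, 62.0 to 63.8%). Among those of the shifted pairs, which are part of the former, it was 451 of 573 (78.7%, 75.2 to 81.9%). In the list labelled 13 DAA, the same share was 664 of 1380 (48.1%, 45.5 to 50.8%) for all such intervals and 36 of 80 (45%, 34.6 to 55.9%) for those of the shifted pairs. The late summits of long intervals thus lay more often toward the next late interval, while in the early list neither side had a clear majority. The share was larger in the shifted pairs, but their choice favours late summits far from the centre, and the shares were not matched for that.

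The neighbour toward which the late summit lay was the taller peak in a minority of cases. It held more fragments at its summit than the 28 DAA interval of the pair in 232 of 518 cases (44.8%, 40.6 to 49.1%), with a median of 70.5 fragments against 82. When it lay on the other side, this was so in 25 of 132 (18.9%, 13.2 to 26.5%), with 50.5 against 91.5. In pairs with summits 1 to 50 bp apart and a joint length of 600 bp or more it was so in 139 of 1026 (13.5%) and 108 of 893 (12.1%). The medians there were 68 fragments against 135 and 67 against 134. Toward the late summit, the neighbours were thus about as tall in both sets, while the shifted pairs had lower late summits of their own. The neighbour overlapped a 13 DAA interval in 157 of 518 cases (30.3%, 26.5 to 34.4%) on the side of the late summit and in 50 of 132 (37.9%, 30.1 to 46.4%) on the other side, near the 32.1% and 32.6% of pairs with summits 1 to 50 bp apart and a joint length of 600 bp or more.

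Of the 27 pairs named above for distance, fold enrichment or fragments, 15 had a late neighbour within 1000 bp on 1 side only, and the late summit lay toward it in 9 and away from it in 6. An example of the former is the pair on chromosome 3 with summits at 92356742 and 92357317, where the next 28 DAA interval began 144 bp past the end on the side of the late summit and the nearest on the other side was 18730 bp away. On chromosome 16, the pair at 71141643 and 71142034 had the next late interval 394 bp away on the late side and 50875 bp on the other. On chromosome 2, the late summit at 52508459 lay to the left of the early one, and the next late interval was 282 bp to the left and 38441 bp to the right. Against this, the late summit on chromosome 3 at 135952144 lay to the left of the early one while the next late interval was 180 bp to the right. On chromosome 8, the late summit at 11647930 lay to the right and the next late interval was 97 bp to the left. The pair with the largest distance, on chromosome 14, had its nearest late interval 13144 bp away, and like 567 of the 1267 pairs it had none within 1000 bp.

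Along the chromosomes, the shifted pairs followed the other pairs. They made up between 2.78% of the one-to-one pairs on chromosome 8 (2.13 to 3.63%) and 4.35% on chromosome 5 (3.58 to 5.29%), with 44 pairs on chromosome 7 and 99 on chromosome 10. At a joint length of 600 bp or more the share ran from 9.70% on chromosome 2 to 15.1% on chromosome 5. Between neighbours in this order the Wilson intervals overlapped, and those of chromosomes 8 and 5 did so in a narrow range. The outer 10% of the chromosome at either end held 27.9% of the shifted pairs (25.5 to 30.5%) and 26.7% of all pairs, with the end of the last peak taken as the chromosome length. The late summit had the higher coordinate in 649 pairs (51.2%, 48.5 to 54.0%), from 42.7% on chromosome 12 to 62.8% on chromosome 4, so that no direction along the chromosome prevailed over all pairs.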

How the data were processed

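H3K4me3 ChIP-Seq was analyzed in developing seeds at 2 stages, with 1 library each. According to the methods, the authors quality-filtered the reads, aligned them to the XRQ sunflower genome using BWA-MEM, discarded duplicates with Picard and called peaks with MACS2. An input control and the pooling of immunoprecipitations are not given in the sources used here. Per the file format, the authors' lists hold interval ends and summit offsets in bp, the fold enrichment as a ratio with a pseudocount of 1, the −log10 p-value and −log10 q-value as deposited, and a score that is the latter times 10.

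Intervals were paired by overlap of at least 1 bp. The whole number of summit fragments was solved from fold enrichment and p-value (tolerance 0.001 on −log10 p), which succeeded for 100% of peaks. Poisson intervals (95%) of the fold enrichment treat the local background as fixed and shares have Wilson intervals. Depth was read from the genome-wide background, which came to 157 (13 DAA) and 143 (28 DAA) fragments per 10 kb. A value was called different when it was at least 1.5 times higher in one list. Pairing and fragment solving were tested on simulated data. Named pairs were the 5 with the largest summit distance, the 5 with the highest smaller fold enrichment, the 1 per chromosome with the highest smaller fragment number, and the 3 nearest the distance limit on either side. Alternatives were a limit of 1e-10 on q, one of 1e-05 on p, overlaps of 50 bp or 50%, distances of 200 and 400 bp, no width limit and any number of partners. The members and rules were chosen with earlier results of these data known, and the comparisons on neighbours and on summit height after seeing the pairs. Scripts ran under Python 3.11.15 with scipy 1.17.1, numpy 2.4.6, matplotlib 3.10.9 and pandas 2.3.3.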

Additional observations from a re-analysis of the deposited data

Results flagged for a closer look

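Pairs that met the same limits on summit distance and width also occurred outside the 17 chromosomes, in intervals that the comparisons above did not use. On unplaced sequences there were 26 of 514 one-to-one pairs (5.06%, 95% Wilson interval 3.48 to 7.31%), an interval that includes the 3.58% found on the chromosomes. Their local background had a median of 16.2 fragments at 13 DAA and 10.9 at 28 DAA, and 9 of the 26 were wider at 28 DAA. The mitochondrial sequence held 1 such pair among 49, and the plastid sequence 0 of 29, with a Wilson interval that reaches up to 11.7%.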

How the results depend on the processing

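A p-value of at most 1e-05 removed only 39 and 2 peaks from the lists on the chromosomes and so tested little. Over the other 7 alternatives, 31 of 70 comparisons stayed within the interval of the value above (for the number of pairs, within 1.5 times) and 39 moved, none with a change of direction. The share with the late summit at the higher coordinate moved under none. A q-value of at most 1e-10 gave 619 pairs, of which 454 were among the 1267 and 165 formed anew when weaker intervals were removed. They made up 4.13% of the one-to-one pairs, with 88.2% wider at 28 DAA, 59.1% higher in fold enrichment and 89.2% higher over the genome-wide background. Neither summit was covered in 5.33%, the overlap was 289 bp and the summits lay 107 and 156 bp from the nearer end. A distance of 200 bp gave 3011 pairs and 8.50%, with 76.7%, 58.6% and 77.2% for the same 3 shares and 136 bp for the late summit. A distance of 400 bp gave 573 pairs and 1.62%, with 86.7%, 66.0% and 88.7%. Without a width limit the share was 4.64%, with 86.3%, 66.7% and 86.9%, neither summit covered in 9.80%, an overlap of 230 bp and 153 bp for the late summit. Any number of partners gave 2523 pairs and 6.46%, with 69.8% higher in fold enrichment, an overlap of 191 bp and 154 bp. An overlap of 50% of the shorter interval gave 3.31%, with 86.2% wider, 86.3% higher over background, neither covered in 4.05%, an overlap of 231 bp and 147 bp, and an overlap of 50 bp gave 8.98% with neither covered. Stricter or looser limits change the members by construction, and no other cause was tested.

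Among the alternatives chosen after the data had been seen, the share of late summits facing a 28 DAA neighbour ran from 68.0% (any number of partners) to 80.7% (400 bp). At a joint length of 700 bp or more, pairs at or below the median of late summit fragments were shifted in 23.5% (15.8 to 33.7% over the alternatives) and those above it in 7.30% (3.57 to 19.3%), with the former higher under all 8. The planned comparisons with gene starts were not run for want of gene models of the lists' genome in the work. No paired analysis was possible because each stage had 1 library, and none could be left out. How exactly a summit is placed depends on its fragments, with medians of 22 early and 75 late in the shifted pairs.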

Other observations

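The shifted pairs were mostly scattered, with a median of 1.47 Mb between the early summits of consecutive pairs on a chromosome. In 21 cases consecutive pairs lay within 10 kb, the closest 1165 bp apart, and in 12 of the 21 the late summit lay in the same direction in both. Among the 1229 consecutive pairs farther apart, the direction was the same in 607 (49.4%).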
